A study of Mus musculus with 4 samples.

Results

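The report is about 10 genes that mark the making of new neurons and their first days as immature cells: Mki67, Top2a, Nes, Eomes, Neurod1, Sox11, Sox4, Dcx, Igfbpl1 and Draxin. They were taken by symbol from a list made for this work, with no threshold on measured values but with earlier results of these data known. Of these genes 10 of 10 were found among the 19465 genes counted. The data are 10x Visium-FFPE spatial transcriptomes of coronal brain sections from male wild-type C57BL/6J pups at postnatal day 21. The groups differ in the food of their mothers, adult females whose age is put at 8 weeks in the sample labels and as a range starting there in the series text. Food of the MF group held 2 mg of folic acid per kg, the conventional amount, and that of the HF group 20 mg per kg, and it was given from 2 weeks before the females were mated and kept up while they were pregnant and nursing. Each group holds 2 sections, 1 from each of 2 replicates, and the sources used here do not give the litter of a pup. Apart from the diet of the dam the groups shared strain, sex and age, and nothing was deleted or treated in the pups themselves.

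After birth, neurons go on being made in few places of the mouse brain. In the subgranular zone of the dentate gyrus, radial glia-like stem cells give rise to dividing intermediate progenitors, then to neuroblasts, and then to young granule cells that settle in the granule layer next to it. In the wall of the lateral ventricle, stem cells and their dividing progeny lie under the ependyma, the ciliated lining of the ventricles, and send neuroblasts to the olfactory bulb. The 10 genes follow the order of these steps. Mki67 and Top2a are made in dividing cells: Mki67 encodes the Ki-67 protein that coats mitotic chromosomes, and Top2a the topoisomerase that untangles replicated DNA. Nes encodes nestin, an intermediate filament protein of neural stem cells and also of some vessel cells. Eomes (Tbr2) is the T-box factor of intermediate progenitors. Neurod1 is a basic helix-loop-helix factor of committed neuronal precursors, and it stays on in granule cells and some other neurons. Sox11 and Sox4 are related SoxC factors that switch on neuronal genes in newborn neurons. Dcx encodes doublecortin, a microtubule protein of migrating neuroblasts. Igfbpl1 encodes a secreted protein related to the insulin-like growth factor binding proteins that is known from young neurons, and Draxin a secreted guidance cue for growing axons.

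The genes lie apart in the genome (GRCm38/mm10, GENCODE annotation, all protein coding). Dcx is at chrX:143855842-143933311 on the minus strand, Sox11 at chr12:27334264-27342574 (minus), Sox4 at chr13:28948919-28953713 (minus), Igfbpl1 at chr4:45809468-45826923 (minus), Eomes at chr9:118478212-118486132 (plus), Neurod1 at chr2:79452521-79456751 (minus), Draxin at chr4:148098437-148130698 (minus), Mki67 at chr7:135689784-135716361 (minus), Top2a at chr11:98992943-99024189 (minus) and Nes at chr3:87971078-87980451 (plus). The platform reads probes that bind exons of the transcript, so a level says nothing of isoforms.

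The 4 sections held 3202 to 3602 spots and 34983708 to 90098381 unique molecular identifiers (UMIs). The median per spot ran from 9286 UMIs in HF replicate 1 to 23543.5 UMIs in MF replicate 1. A spot covers several cells or parts of cells. Of the 13470 spots, 13452 passed the filter, and they were grouped by genes other than those described here into 17 named areas that were large enough to test, with 2364 spots left unnamed. The dentate gyrus area held 80 and 63 spots in the MF sections and 69 and 73 spots in the HF sections, from a cluster led by granule layer markers. The ventricle wall was taken as the 50 spots of each section with the most ependymal transcripts. Of these 200 spots, 130 lay in the ependymal clusters and 42 in the medial habenula clusters. The latter border the dorsal part of the ventricle between the thalami. A further 19 lay in hypothalamus, 4 in the dentate gyrus cluster, 4 in unnamed clusters and 1 in the meninges. HF replicate 2 stood apart in the areas it held: its medial habenula area had 23 spots against 52 to 58 in the others, and its reticular thalamic nucleus 109 spots against 38 to 53. The 4 sections share 2474 barcodes, which are positions of the array and not cells. Levels are given as counts per 1000000 UMIs of the area (CPM). In bulk areas such as these, fewer cells of a type and less RNA per cell cannot be told apart.

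In the dentate gyrus the genes of the newborn neuron stood far above the rest of the section. Sox11, Neurod1, Igfbpl1 and Draxin were the most concentrated there among those that could be tested, and Nes, the stem cell filament, was not higher there than elsewhere. The area took 1.90 to 2.22% of the spots and 3.75 to 4.24% of the UMIs. It held 46.6 to 59.3% of all Igfbpl1 UMIs of a section, 50 to 73.3% of those of Eomes and 35.1 to 53.8% of those of Draxin. For Neurod1 the share was 22.0 to 29.3%, for Sox11 18.1 to 23.3%, for Dcx 9.06 to 13.6% and for Sox4 8.84 to 11.3%.

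**Figure D1:**
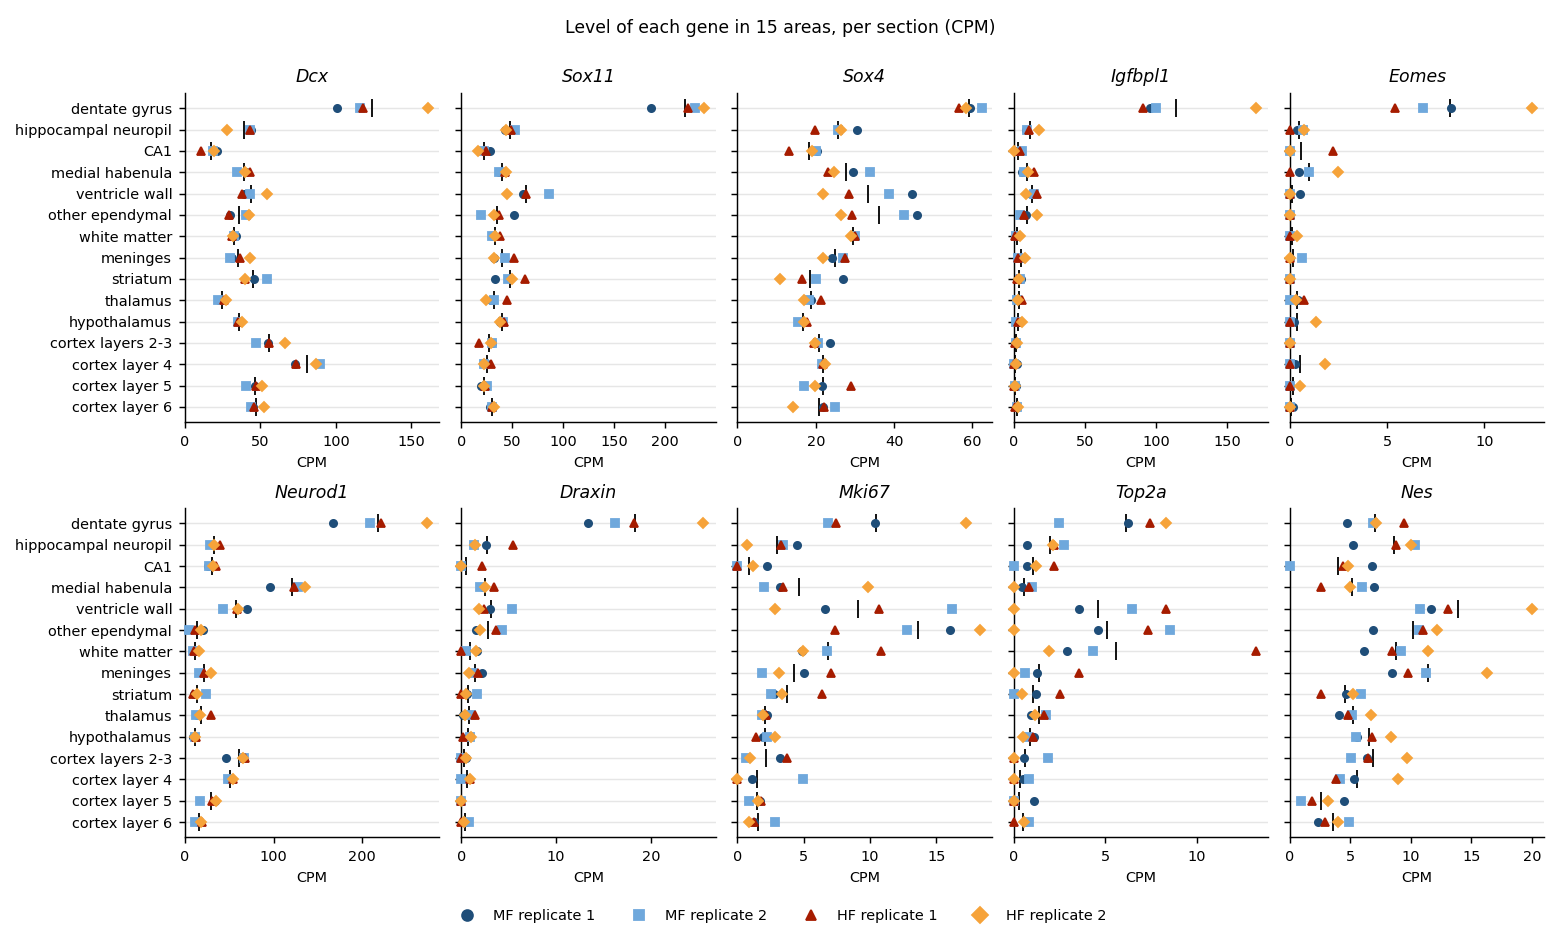
Each panel plots the level of 1 gene in CPM (horizontal axis) in 15 areas of the section. Each point is 1 of the 4 sections and the black bar is the mean of the 4. In the dentate gyrus row every section of Sox11, Igfbpl1, Neurod1 and Draxin sits above every section of the other areas, with Sox11 between 186 and 239 CPM there. The Nes points of the dentate gyrus, 4.74 to 9.45 CPM, lie among those of the other areas.

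Of the dividing-cell genes, Mki67 was at 10.4 and 6.86 CPM in the dentate gyrus of the MF sections and at 7.42 and 17.2 CPM in that of the HF sections. Outside the area it was at 2.52 to 2.96 CPM, so that all 4 sections were higher inside than outside. Top2a was at 6.22 and 2.49 CPM (MF) and 7.42 and 8.32 CPM (HF), against 0.784 to 1.97 CPM outside. The Top2a value of MF replicate 2 was the lowest of the 4 and close to the outside range. Relative to the mean of the other named areas, edgeR's quasi-likelihood test with section as a block gave log2 ratios of 1.78 (SE 0.25, adjusted p = 5.52e-09) for Mki67 and 2.28 (SE 0.32, adjusted p = 4.86e-09) for Top2a.

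The sequences upstream of Mki67 and Top2a are shown because both genes are known to be switched on late in the cell cycle through short elements there, CCAAT boxes and the cell cycle genes homology region, TTTGAA. They are the RefSeq windows of GRCm38.p6 from 250 bases before to 50 bases after the start of the transcript, chr7:135716330-135716629 for Mki67 and chr11:99024140-99024439 for Top2a, both on the minus strand, written from 5′ to 3′. Capitals mark CCAAT or TTTGAA on either strand (ATTGG and TTCAAA are the reverse).
Mki67: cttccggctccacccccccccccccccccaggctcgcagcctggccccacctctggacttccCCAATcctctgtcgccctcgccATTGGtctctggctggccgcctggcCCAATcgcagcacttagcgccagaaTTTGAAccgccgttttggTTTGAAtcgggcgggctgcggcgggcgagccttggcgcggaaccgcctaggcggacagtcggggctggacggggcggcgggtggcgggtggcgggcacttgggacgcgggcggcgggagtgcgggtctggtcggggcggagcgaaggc
Top2a: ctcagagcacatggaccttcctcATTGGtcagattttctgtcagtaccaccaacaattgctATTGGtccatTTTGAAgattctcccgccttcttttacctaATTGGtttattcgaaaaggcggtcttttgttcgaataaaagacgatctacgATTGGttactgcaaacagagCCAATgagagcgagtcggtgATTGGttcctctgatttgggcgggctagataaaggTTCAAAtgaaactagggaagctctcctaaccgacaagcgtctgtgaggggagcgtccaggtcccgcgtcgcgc
Mki67 has 3 CCAAT and 2 TTTGAA in this window, and Top2a has 6 CCAAT and 2 TTTGAA. Over the 27025 promoter windows of the table, 37.9% hold a CCAAT, 3.56% hold 3 or more, 18.1% hold a TTTGAA and 2.39% hold 2 or more. None of the marked elements overlaps another. The motifs were chosen after the sequences were seen, and a match is a description of letters, not a bound site.

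Eomes was scarce, with 28, 11, 8 and 21 UMIs in the dentate gyrus of MF replicates 1 and 2 and HF replicates 1 and 2. This was 8.30, 6.86, 5.40 and 12.5 CPM, against 0.0980 to 0.416 CPM outside the area. It was the 1 member that did not pass the filter on low counts in the comparison of areas, so it has no test there. Even so, the next named area in its order was medial habenula, with a mean of 0.981 CPM. The Eomes transcript was caught in 13, 8, 7 and 13 dentate gyrus spots of the 4 sections, in the same order.

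Those few spots also held more of the other genes. In them Igfbpl1 was at 182, 314, 159 and 277 CPM, against 74.7, 53.9, 82.7 and 137 CPM in the dentate gyrus spots of the same sections without an Eomes UMI. Mki67 was at 22.4, 17.5, 30.6 and 52.4 CPM against 7.39, 4.56, 4.55 and 6.24 CPM. Dcx was at 163, 262, 177 and 234 CPM against 85.4, 84.3, 111 and 138 CPM. For these 3 genes, and also for Sox11, Sox4, Neurod1, Draxin and Top2a, all 4 sections were higher where Eomes was caught. Nes was the exception, since it was lower there in HF replicate 1 (6.12 against 9.86 CPM). The spots with Eomes were also deeper, with medians of 25313 to 49572 UMIs against 19532 to 37703 UMIs, and the part of depth in catching an Eomes UMI was not tested.

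Neurod1 was at 167 and 209 CPM in the dentate gyrus of the MF sections and at 221 and 273 CPM in that of the HF sections. Outside it was at 23.1 to 32.1 CPM, and the log2 ratio to the other areas was 2.97 (SE 0.09, adjusted p = 1.30e-45). Sox11 was at 186, 230.1, 223 and 239 CPM in the 4 sections, against 32.4 to 42.6 CPM outside, a log2 ratio of 2.55 (SE 0.07, adjusted p = 1.49e-46). Sox4, its relative, was at 59.3, 62.4, 56.7 and 58.2 CPM, a narrow range. Its excess over the other areas was smaller than that of Sox11, with a log2 ratio of 1.28 (SE 0.09, adjusted p = 4.53e-21). Outside the dentate gyrus Sox4 was at 18.8 to 23.8 CPM.

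The start regions of the SoxC genes are shown because both genes were higher in the dentate gyrus and both windows hold CAGCTG, an E-box of the kind bound by basic helix-loop-helix factors, the class of Neurod1. They are at chr12:27342669-27342968 (Sox11) and chr13:28953650-28953949 (Sox4), both minus strand, from the same RefSeq table. Capitals mark CAGCTG, which reads the same on both strands.
Sox11: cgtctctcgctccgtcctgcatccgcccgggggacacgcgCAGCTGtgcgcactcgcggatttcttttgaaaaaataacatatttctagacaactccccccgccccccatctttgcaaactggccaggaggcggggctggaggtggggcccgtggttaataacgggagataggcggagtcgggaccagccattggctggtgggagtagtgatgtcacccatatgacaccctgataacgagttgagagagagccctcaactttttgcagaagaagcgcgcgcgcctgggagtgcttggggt
Sox4: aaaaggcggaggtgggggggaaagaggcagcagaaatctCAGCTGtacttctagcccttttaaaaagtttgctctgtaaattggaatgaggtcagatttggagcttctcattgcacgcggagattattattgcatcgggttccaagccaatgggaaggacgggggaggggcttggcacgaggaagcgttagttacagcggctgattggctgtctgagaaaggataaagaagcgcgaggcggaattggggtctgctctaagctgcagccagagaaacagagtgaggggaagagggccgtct
CAGCTG is in 16.1% of all windows of the table. Draxin also holds 1, and the windows of Dcx (2 entries), Eomes, Neurod1, Mki67, Top2a and Nes do not hold these letters. The windows also held CCAAT in Sox4 (4), Sox11 (1), Dcx (1 in each entry) and Eomes (2), and TTTGAA in Sox11 (1). Of the members, 9 of 10 matched the table, and Igfbpl1 is named only.

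Dcx was at 101 and 116 CPM (MF) and 118 and 161 CPM (HF) in the dentate gyrus. It was at 36.3 to 42.0 CPM in the remainder of the section, and its log2 ratio to the other areas was 1.58 (SE 0.07, adjusted p = 4.68e-33). Igfbpl1 was at 96.0 and 100.4 CPM in the MF sections and at 91.1 and 170.5 CPM in the HF sections. Against 3.11 to 4.83 CPM outside, this gave the highest log2 ratio of the 9 members tested, 4.94 (SE 0.12, adjusted p = 1.69e-50). Draxin was at 13.3, 16.2, 18.2 and 25.5 CPM against 0.865 to 1.19 CPM outside, a log2 ratio of 4.40 (SE 0.23, adjusted p = 9.92e-28). Nes was at 4.74, 6.86, 9.45 and 7.13 CPM against 5.07 to 7.96 CPM outside, a log2 ratio of 0.06 (SE 0.20, adjusted p = 0.861). Thus 8 of the 9 members tested were called higher in the dentate gyrus and none lower, where a call needs an adjusted p under 0.05 and a 1.2-fold difference. Of the 12683 genes in this fit 35.8% were called, 18% as higher. A scarce gene, such as Draxin or Top2a, can pass the filter on low counts through the area where it is high. Such a gene is then likely to be called higher there, so nothing is read from the count of members against this share. The areas were drawn with other genes of the same spots, so the tests speak of the areas as drawn.

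The step at the edge of the dentate gyrus was sharp. One spot distance away, Igfbpl1 fell from a mean of 114.5 to 17.7 CPM, and a further spot away it was at 7.05 CPM. Draxin fell from 18.3 to 2.48 CPM over the first step, Sox11 from 220 to 56.2 CPM, Neurod1 from 218 to 55.9 CPM and Dcx from 124 to 37.9 CPM. Sox4 went from 59.1 to 27.4 CPM and Mki67 from 10.5 to 3.20 CPM. Nes did not follow, with 7.04 CPM in the area and 6.91 CPM beside it. The values are means of 4 sections, given as a description.

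**Figure D2:**
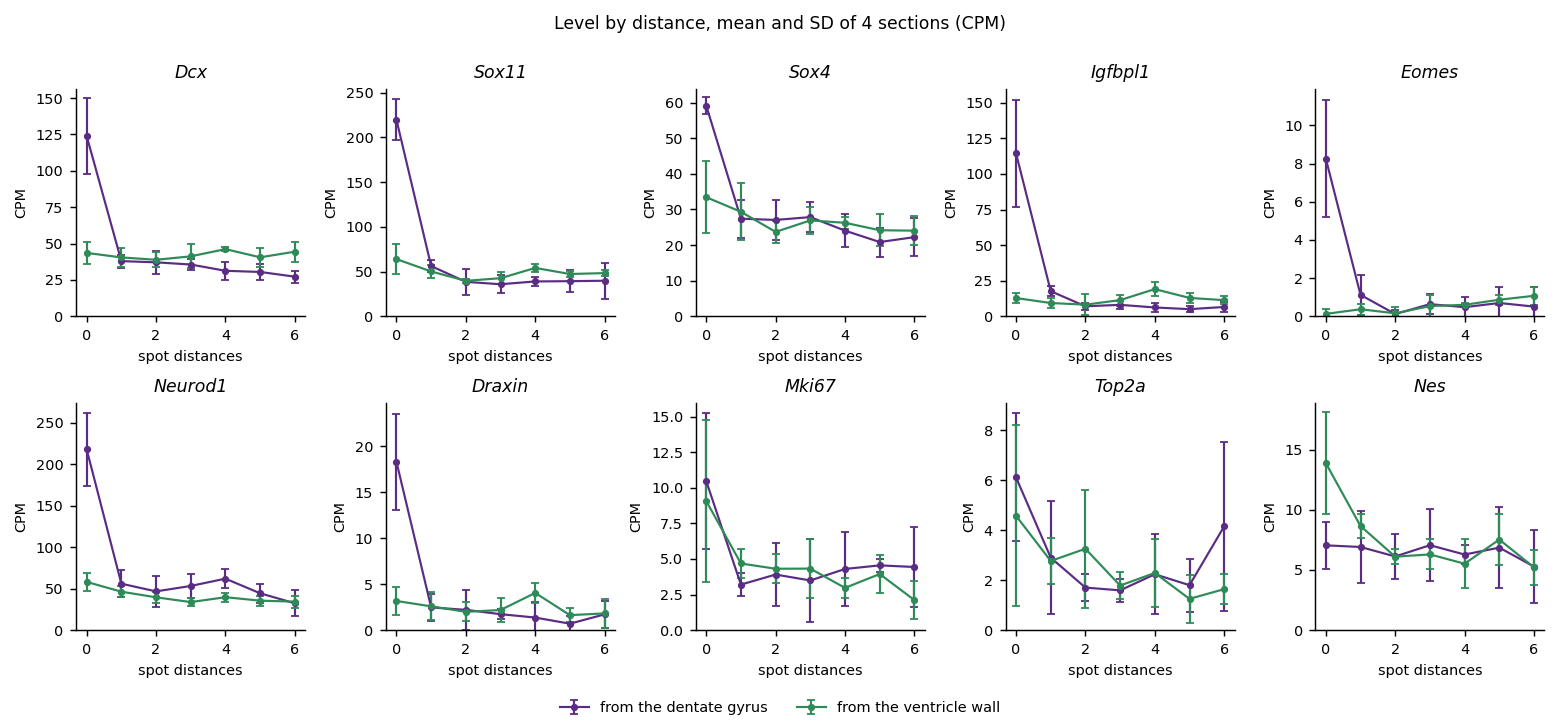
Each panel plots the mean level of 1 gene (CPM, bars show the SD of 4 sections) against the distance in spots from the dentate gyrus (purple) or from the ventricle wall (green), where 0 is the area itself. The purple lines of Dcx, Sox11, Sox4, Igfbpl1, Eomes, Neurod1 and Draxin drop at the first step, as for Igfbpl1 from 114.5 to 17.7 CPM, while for Nes the green line is the one that starts high, at 13.9 CPM.

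To set areas side by side at equal depth, each spot was thinned to 5000 UMIs and the share of spots with a UMI of the gene was counted. Igfbpl1 was caught in 27.5, 19.0, 27.5 and 34.2% of the dentate gyrus spots of the 4 sections. In cortex layers 2-3, which makes no new neurons after birth, it was caught in 0.637, 1.45, 0.847 and 1.87% of spots. Without thinning the shares were 49.2 to 71.2% and 0.813 to 2.55%, at median depths of 20509 to 38590 UMIs and 8286 to 23588 UMIs. Neurod1 behaved otherwise: 43.8 to 59.4% of thinned dentate gyrus spots held it, but so did 21.0 to 30.5% of the thinned spots of cortex layers 2-3. Nes was caught in 2.50 to 6.35% of dentate gyrus spots and in 2.55 to 4.35% of those cortical spots, and no difference was detectable at this depth. For single shares the exact 95% binomial intervals are wide, as from 17.5 to 39.6% for Igfbpl1 in the dentate gyrus of HF replicate 1, and cover counting error only.

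The file of each section deposited by the authors gives Moran's I, a score of how far spots with like levels of a gene lie next to each other. Neurod1 had 0.182 to 0.262 in the 4 sections and Igfbpl1 0.186 to 0.231, which placed them in the top 3.13 to 4.31% and the top 2.72 to 4.93% of genes. Sox11 had 0.0795 to 0.101. Nes, whose transcripts were spread thinly over the section, had 0.00623 to 0.0140.

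The ventricle wall, as drawn from ependymal transcripts, showed another mixture of the same genes. It is not the stem cell wall of the lateral ventricle alone, since most of its spots lay by thalamus or hypothalamus. Nes was higher there than in the dentate gyrus, the ranges of Mki67 and Top2a overlapped with those of the dentate gyrus, and Dcx was not above the other areas. For Mki67 and Top2a the wall was the higher in MF replicate 2 and HF replicate 1 and the lower in the other sections. In HF replicate 2 Mki67 was at 2.86 against 17.2 CPM and Top2a at 0 against 8.32 CPM. Nes was at 11.6 and 10.8 CPM in the wall of the MF sections and at 13.04 and 20.0 CPM in that of the HF sections, against 4.91 to 7.62 CPM outside. The log2 ratio of Nes to the other areas was 1.08 (SE 0.20, adjusted p = 3.35e-06), and from the wall outwards its mean level went from 13.9 to 8.65 and then 6.10 CPM. The Nes mean of the wall was passed by 1 unnamed cluster only, led by Cga, Agrp and Fndc3c1, at 21.2 CPM (19.5 to 22.4 CPM) over the 3 sections that held spots of it, HF replicate 2 having none.

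Mki67 was at 6.57 and 16.2 CPM (MF) and 10.7 and 2.86 CPM (HF) in the wall. The values spread widely, and in HF replicate 2 the wall was no higher than the section outside it. Top2a was at 3.54, 6.47, 8.30 and 0 CPM. The log2 ratios of the wall to the other areas were 1.36 (SE 0.33, adjusted p = 3.73e-04) for Mki67 and 1.61 (SE 0.44, adjusted p = 0.00168) for Top2a. Mki67 was at its highest mean, 13.6 CPM (7.34 to 18.3 CPM), in the ependymal spots that did not count as wall. The ranges of the dentate gyrus (10.5 CPM), the wall (9.07 CPM) and white matter (6.85 CPM) overlapped with it.

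Sox11 was at 60.7, 86.2, 64.0 and 44.8 CPM in the wall, the second mean among the named areas behind the dentate gyrus. Its log2 ratio was 0.58 (SE 0.12, adjusted p = 1.97e-05), and its range overlapped with that of striatum, the next named area. Sox4 was at 44.5, 38.8, 28.5 and 21.9 CPM. Its log2 ratio of 0.40 (SE 0.13) had an adjusted p of 0.00733 and lost the call without MF replicate 1 (0.21, adjusted p = 0.342), with thinned spots (0.16, adjusted p = 0.739) and with a wall of 25 (0.38, adjusted p = 0.0860) or 100 spots (0.20, adjusted p = 0.105). The secreted pair was also called, Igfbpl1 with 1.51 (SE 0.29, adjusted p = 6.84e-06) and Draxin with 1.70 (SE 0.48, adjusted p = 0.00197). Igfbpl1 was at 12.1, 14.0, 16.6 and 8.59 CPM in the wall, against 6.98, 6.63, 8.08 and 11.5 CPM in all spots outside it, so that HF replicate 2 went the other way. Draxin was at 3.03, 5.39, 2.37 and 1.91 CPM against 1.29, 1.66, 1.90 and 1.88 CPM, from 6, 5, 2 and 2 UMIs, and both HF sections lay close to their level outside. Both lost the call when the remainder of the section was taken as 1 area (Igfbpl1 0.52, adjusted p = 0.0957; Draxin 0.83, adjusted p = 0.149), and Draxin also at Leiden resolution 3 (1.10, adjusted p = 0.0565).

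Neurod1 was at 69.8 and 43.1 CPM (MF) and 59.3 and 60.1 CPM (HF) in the wall, a log2 ratio of 0.97 (SE 0.14, adjusted p = 1.59e-08). The call was lost with thinned spots (0.50, adjusted p = 0.137). Of the 200 wall spots 42 lay in the medial habenula clusters, and their part in this value was not tested apart. With the wall taken as the ependymal clusters, which changes other spots too, the ratio turned to -0.97 (adjusted p = 2.92e-05). Medial habenula was the second area in the order of Neurod1, at 120 CPM (95.8 to 136 CPM). Dcx was at 38.9, 43.1, 37.9 and 54.4 CPM, a log2 ratio of -0.09 (SE 0.11, adjusted p = 0.566). Eomes was caught with 1 UMI in the wall of MF replicate 1 and none in the others. Of the 9 members tested in the wall 8 were called, all as higher, where 40.5% of the 12683 genes were called and 21.9% were called as higher. The filter on low counts was that of the dentate gyrus comparison, and nothing is read from the count of members here either.

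The wall was then split by what lay beside it. A wall spot was given to the side with more spots within 3 spot distances, striatum or white matter against thalamus or hypothalamus. The first side took 10, 14, 9 and 8 wall spots in the 4 sections. The second took 23, 32, 30 and 35, and 17, 4, 11 and 7 wall spots went to neither. Mki67 was at 18.5, 50.3, 65.8 and 26.9 CPM near striatum or white matter, from 7, 11, 5 and 3 UMIs. Near thalamus or hypothalamus it was at 1.23, 6.50, 5.97 and 0 CPM, from 1, 4, 3 and 0 UMIs. The 4 sections all went the same way and the ranges did not overlap, but the counts were too low for Mki67 to enter the fit. Of the other proliferation genes only Mcm6 could be tested there, and it was not called (0.40, SE 0.44, adjusted p = 0.613). Nes was at 15.9, 22.9, 26.3 and 62.7 CPM against 8.61, 6.50, 15.9 and 14.8 CPM, higher near striatum or white matter in each of the 4 sections. Top2a was at 7.94, 22.9, 39.5 and 0 CPM against 0, 1.62, 1.99 and 0 CPM.

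**Figure D3:**
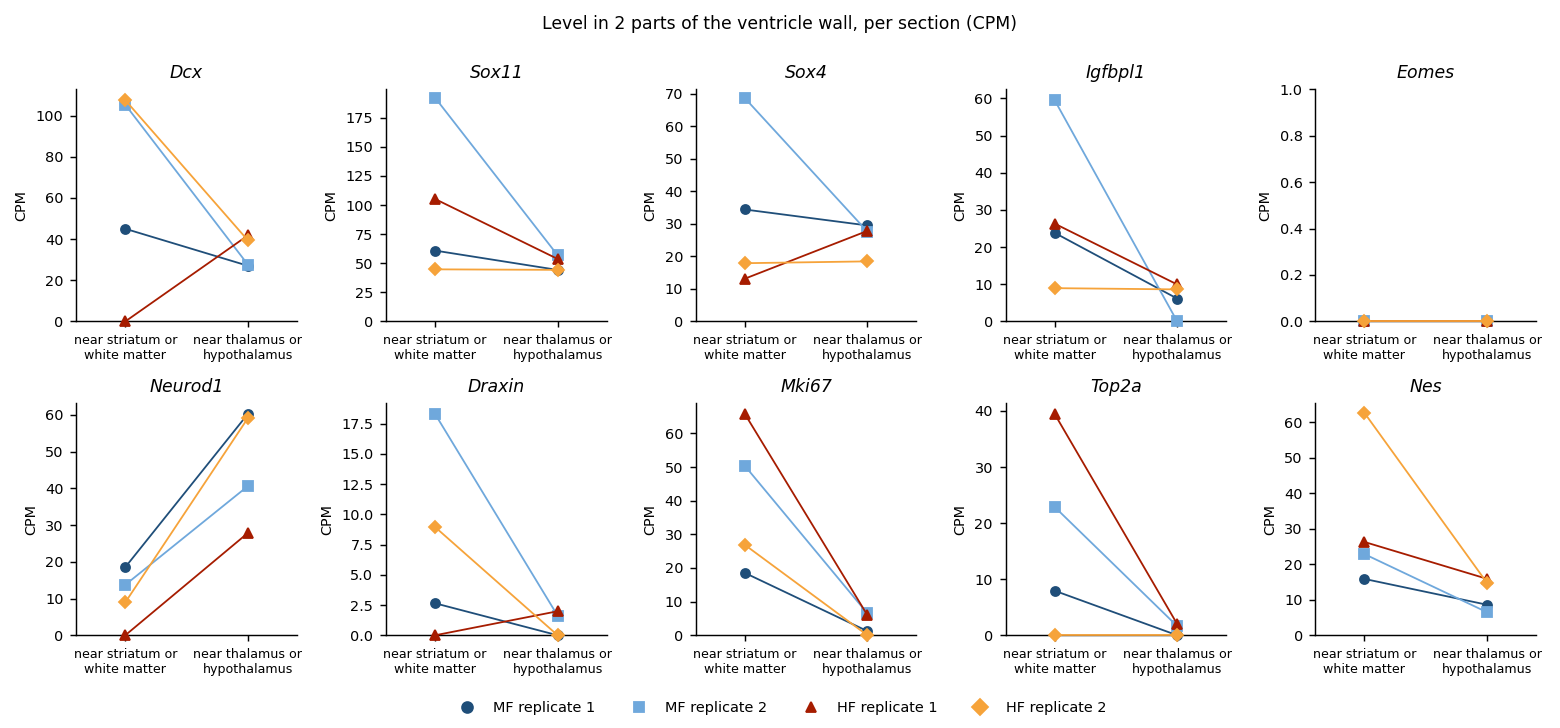
Each panel joins the level of 1 gene (CPM) in the wall near striatum or white matter (left) with that in the wall near thalamus or hypothalamus (right) of the same section. Every Mki67 line goes down from left to right, as in MF replicate 2 from 50.3 to 6.50 CPM, every Neurod1 line goes up, and the Dcx line of HF replicate 1 starts at 0. Eomes is at 0 in both parts of each section.

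Among the 4 members with enough counts for the test, Sox11 was higher near striatum or white matter (60.9, 192, 105 and 44.8 CPM against 44.3, 56.9, 53.7 and 44.3 CPM). The log2 ratio was 1.10 (SE 0.25, adjusted p = 5.18e-04), and without MF replicate 2 it was 0.63 (adjusted p = 0.222). Dcx was at 45.0, 105, 0 and 107 CPM against 27.1, 27.6, 41.8 and 39.4 CPM. The Dcx ratio was called (1.18, SE 0.33, adjusted p = 0.00518) although HF replicate 1 went the other way, and the call was lost without MF replicate 2 (0.81, adjusted p = 0.237) and without HF replicate 2 (1.03, adjusted p = 0.0779). Neurod1 was lower near striatum or white matter, at 18.5, 13.7, 0 and 8.96 CPM against 60.3, 40.6, 27.8 and 59.1 CPM, a log2 ratio of -1.75 (SE 0.43, adjusted p = 0.00121). Sox4 had a ratio of 0.61 (SE 0.37, adjusted p = 0.288). The members called were 3 of 4, where 20.3% of 8898 genes were called. The filter here can be passed through the part of the wall where a gene is high, and nothing is read from this count. In the same comparison 13 of 13 white matter markers were called higher and 6 of 6 medial habenula markers tested were called lower near striatum or white matter, and the part of these cells in the levels of the members was not tested.

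Outside the dentate gyrus and the wall as drawn here, some of the genes had levels of their own. Dcx was at 80.6 CPM in cortex layer 4 (72.9 to 89.3 CPM), the second area in its order after the dentate gyrus at 124 CPM, and the ranges of these 2 areas did not overlap. The unnamed cluster led by Pomc, Cdhr1 and Lnp1 followed at 77.1 CPM (70.5 to 81.0 CPM), within the range of layer 4. The lowest mean of Dcx was that of CA1, 17.3 CPM (11.0 to 21.0 CPM). Neurod1 was at 120 CPM in medial habenula, at 61.5 CPM in cortex layers 2-3 and at 51.4 CPM in cortex layer 4, against 11.1 CPM in white matter. For Sox11 the dentate gyrus and the wall were followed by striatum (47.8 CPM) and the neuropil of the hippocampus (47.5 CPM), with cortex layer 5 last among the cortical layers at 22.7 CPM.

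Across 18 areas the genes whose pattern of mean levels was most like that of a member were listed by Pearson's r, as a description over 12141 genes with at least 10 CPM in 1 area. The areas share sections, and the dentate gyrus alone can carry such a value. Igfbpl1 and Draxin were each other's closest (r = 0.96). After Draxin came Dsp (0.93) and C1ql2 (0.90) for Igfbpl1, both of which are known from granule cells of the dentate gyrus. Both are also among the markers that named this area, so the likeness is no separate sign of granule cells. Sox11 was closest to Pprc1 (0.93), Mex3a (0.90) and Pla2g2f (0.89), and Dcx to Edrf1 (0.86), Zfp57 (0.86) and Eef2k (0.85). Mki67 was closest to Atad2b (0.96) and Nes to Dusp11 (0.88).

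Other genes of the same steps were read in the same fits, from lists by role that were also made with earlier results of these data known. Of the 16 proliferation genes in the panel 7 passed the filter on low counts. A scarce gene can pass it through the area where it is high, so nothing is read from the number of list genes called against the share of all genes. In the dentate gyrus, where 18% of all genes were called higher and 17.8% lower, 6 of 7 proliferation genes tested were called higher and none lower, among them Mcm6, a subunit of the replicative helicase (39.7, 36.8, 38.5 and 48.7 CPM, log2 ratio 1.91, SE 0.12, adjusted p = 5.44e-24), and the mitotic kinase Cdk1 (1.71, SE 0.32, adjusted p = 4.40e-06). Of 14 stem and progenitor genes, 5 were called higher and 3 lower. The higher ones included Hopx, known from quiescent stem cells of the dentate gyrus (1.16, SE 0.08, adjusted p = 4.53e-21), and Neurog2, a proneural factor of progenitors (1.59, SE 0.27, adjusted p = 6.31e-07). Of 24 immature neuron genes, 12 were called higher and 9 lower, led by Bhlhe22 (2.97, SE 0.09, adjusted p = 5.34e-43) and Neurod2 (2.40, SE 0.08, adjusted p = 7.37e-41), both transcription factors that mature neurons also keep. Of genes of other cell types, 8 of 8 oligodendrocyte precursor genes, 7 of 7 microglial genes and 4 of 7 endothelial genes were called lower, and none of the 4 blood genes was called. White matter markers were called lower in 13 of 13. Of the markers of neighbouring structures 9 of 9 for choroid plexus and 7 of 8 for medial habenula were called higher, and their part in the values of the members was not tested.

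In the wall, where 21.9% of all genes were called higher and 18.6% lower, 9 of 14 stem and progenitor genes were called higher and 1 lower, among them Vim, the filament protein vimentin (log2 ratio 2.15, SE 0.09, adjusted p = 9.42e-34), and Id4, an inhibitor of differentiation (1.02, SE 0.06, adjusted p = 3.05e-24). The proliferation list had 3 of 7 genes called higher, Mcm6, Cdk1 and Nusap1, and none lower. Without MF replicate 2 the calls of Cdk1 (0.87, adjusted p = 0.188) and Nusap1 (1.05, adjusted p = 0.0758) were lost. That of Mcm6 was lost with thinned spots (0.87, adjusted p = 0.0540). Of the immature neuron list 7 of 24 were called higher and 6 lower. The 3 leading genes of that list do not mark newborn neurons alone: Cd24a (2.09, SE 0.11, adjusted p = 1.28e-29) is made by ependymal cells too, and Nhlh2 (3.07, SE 0.19, adjusted p = 8.80e-25) and Calb2 (1.44, SE 0.09, adjusted p = 1.22e-24) are also made by mature neurons. In the wall 8 of 8 medial habenula markers and 9 of 9 choroid plexus markers were called higher, and their part in these counts was not tested. Within the wall, where 11.1% of all genes were called higher near striatum or white matter and 9.27% lower, 3 of 9 stem and progenitor genes tested were called higher there and none lower, with Prom1, made by ependymal and stem cells (1.70, SE 0.32, adjusted p = 1.92e-05), in the lead. So were 5 of 5 oligodendrocyte precursor genes tested, such as Olig1 (1.62, SE 0.13, adjusted p = 8.28e-17). Of the stem and progenitor genes, Id4 lost its call without MF replicate 2 (0.41, adjusted p = 0.0531). Notch1 lost it without HF replicate 1 (0.55, adjusted p = 0.126).

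The comparison of HF with MF asked whether the diet of the dam changed these genes in the offspring. With 2 sections per diet an exact permutation test of a single value cannot go below p = 0.333, so the tests rest on the spread that edgeR shares over all genes. In no area was a member called: the count was 0 in the whole section and in each of the 17 areas. Over the 15 areas other than the dentate gyrus and the wall, 0.102% of all 165438 tests of a gene in an area were called. Over the whole section 0% of 14971 genes were called, 6.81% had an unadjusted p under 0.05, and DESeq2 called 22 genes, none of them a member. At an unadjusted p under 0.05 stood 2 of the 10 members, Neurod1 and Igfbpl1.

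Neurod1 was at 28.5 and 31.7 CPM in the whole MF sections and at 40.1 and 37.0 CPM in the HF sections. Both HF sections were above both MF sections (log2 fold change 0.35, SE 0.09, unadjusted p = 0.00713, adjusted p = 0.696). Without HF replicate 1 (0.30, adjusted p = 0.0349) or without HF replicate 2 (0.40, adjusted p = 0.0141) the value passed the threshold. These fits hold 1 HF section, so that the MF pair alone gives the spread, and over all genes they called 1166 (7.68%) and 840 (5.55%), against 0 with all 4 sections. Igfbpl1 was at 7.09 and 6.79 CPM (MF) and 8.29 and 11.4 CPM (HF), a log2 fold change of 0.50 (SE 0.17, unadjusted p = 0.0285, adjusted p = 0.696). Only without HF replicate 1 did it pass (0.71, adjusted p = 0.00264). Nes (5.06 and 5.99 against 5.66 and 7.93 CPM) passed in the same way without HF replicate 1 (0.54, adjusted p = 0.0304). The groups did not overlap for 3 members with HF above MF (Neurod1, Igfbpl1, Draxin) and for Mki67 with HF below MF, where 21.8% and 17.9% of all genes tested did so. The median log2 fold change of the 10 members was 0.21, against 0.0020 over all genes. The markers of other cells also differed in the whole section, although none of these genes was called: 9 choroid plexus markers summed to 2460.5 and 2313 CPM in MF and 3447 and 3815 CPM in HF, 13 ependymal markers to 122 and 126 CPM against 166 and 155 CPM, and 13 white matter markers to 26774 and 27959 CPM against 22124 and 23811 CPM. Their part in the values of the members was not tested.

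In the dentate gyrus 9 of 10 members had a positive estimate, and none passed the test (0.124% of 11261 genes were called, and 8.01% had an unadjusted p under 0.05, as did 4 of the members). Neurod1 was at 167 and 209 CPM against 221 and 273 CPM, the member with the smallest p (log2 fold change 0.42, SE 0.13, unadjusted p = 0.00515, adjusted p = 0.336). Dcx was at 101 and 116 CPM against 118 and 161 CPM (0.39, SE 0.15, adjusted p = 0.489), where HF replicate 1 was just above MF replicate 2. Draxin was at 13.3 and 16.2 CPM against 18.2 and 25.5 CPM (0.62, SE 0.28, adjusted p = 0.590). Igfbpl1 had its whole difference in 1 section: 96.0 and 100.4 CPM in MF and 91.1 CPM in HF replicate 1, against 170.5 CPM in HF replicate 2 (0.44, SE 0.19, adjusted p = 0.567). Without HF replicate 2 the Igfbpl1 value was -0.10, and without HF replicate 1 it was 0.81 (adjusted p = 2.60e-06).

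**Figure D4:**
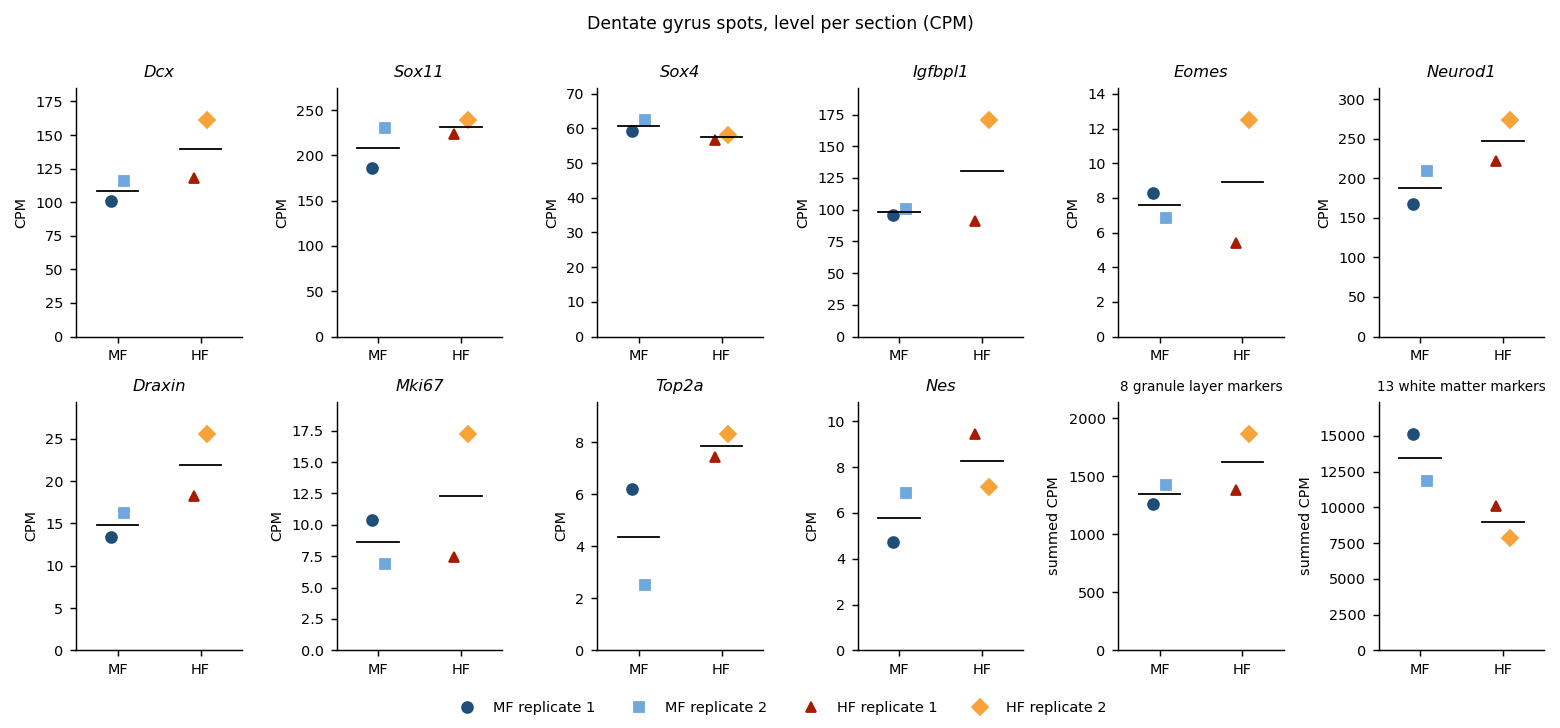
The panels plot the level in the dentate gyrus spots of each section (CPM) for the 10 genes, and the summed level of 8 granule layer markers and 13 white matter markers, with MF on the left and HF on the right and the mean of each group as a line. HF replicate 2 (orange) is the highest section for each of the 10 genes except Sox4 and Nes. It is also the highest for the granule layer markers (1865 CPM) and the lowest for the white matter markers (7867 CPM).

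The other members were not called in the dentate gyrus either. Sox11 was at 186 and 230.1 CPM against 223 and 239 CPM (0.17, SE 0.12, adjusted p = 0.777), and the groups overlapped. Sox4 was the 1 member with a negative estimate, at 59.3 and 62.4 CPM against 56.7 and 58.2 CPM (-0.07, SE 0.16, adjusted p = 0.957). Mki67 (10.4 and 6.86 against 7.42 and 17.2 CPM) had an estimate of 0.47 (SE 0.38, adjusted p = 0.814), Top2a 0.67 (SE 0.45, adjusted p = 0.746), Nes 0.59 (SE 0.41, adjusted p = 0.772) and Eomes 0.23 (SE 0.40, adjusted p = 0.938). The HF sections lay above both MF sections for Dcx, Neurod1, Draxin, Top2a and Nes, 5 of 10 members where 18.1% of all genes did so, and below both for Sox4, where 19.4% did so. The median estimate of the 10 members was 0.43, against 0.0018 over all genes tested. Leaving out HF replicate 1 called 3 members, Igfbpl1, Neurod1 (0.57, adjusted p = 6.02e-04) and Dcx (0.60, adjusted p = 0.00194). In that fit the lone HF section was assumed to vary like the MF pair, and 439 of all genes (3.77%) were called, against 14 with all 4 sections.

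The makeup of the dentate gyrus spots also differed between the sections. The summed level of 8 granule layer markers was 1259 and 1430 CPM in MF and 1387 and 1865 CPM in HF, and the groups overlapped. That of 13 white matter markers was 15127 and 11836 CPM in MF and 10095 and 7867 CPM in HF. All 13 white matter markers were lower in HF, as they were in the whole section and in the wall. In the dentate gyrus 2 were called, Mal (-0.72, adjusted p = 0.0220) and Trf (-0.68, adjusted p = 0.0220). Both calls were lost without MF replicate 1 (adjusted p = 0.969 for Mal and 0.322 for Trf), at Leiden resolution 3 (0.0629 and 0.497) and with the marker score (0.306 and 0.652), and that of Trf also with DESeq2 (0.0544) and with thinned spots (0.401). The 8 medial habenula markers, at 393, 389, 262 and 226 CPM, were all lower in HF too, with Tac2 called (-0.76, adjusted p = 0.0358). That call was lost with DESeq2 (adjusted p = 0.287), with thinned spots (0.204), without MF replicate 1 (0.499), at Leiden resolution 3 (0.564) and with the marker score (0.838). Set against the granule layer markers of the same spots, Neurod1 was at 13.3, 14.6, 16.0 and 14.7% of their sum, Dcx at 8.00, 8.12, 8.52 and 8.63%, Draxin at 1.06, 1.13, 1.31 and 1.37% and Igfbpl1 at 7.63, 7.02, 6.57 and 9.14%. On this scale the sections lay relatively closer together for Dcx, Neurod1 and Draxin than in CPM, with both HF sections above both MF sections, for Neurod1 by a narrow margin. Of all genes tested 1.51% lay above and 36.6% below on it, the markers in the denominator were highest in HF replicate 2, and nothing is read from the count of members. Nes (0.377, 0.480, 0.681 and 0.382%) and Top2a (0.494, 0.175, 0.535 and 0.446%), which were above in CPM, were not on this scale. Sox4 (4.71, 4.36, 4.09 and 3.12%) was below both MF sections, and Sox11 was at 14.8, 16.1, 16.1 and 12.8%. The part of the spots' makeup in the differences was not tested beyond these values.

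Among the other genes of these steps in the dentate gyrus, 1 was called: Bhlhe22, at 132 and 162 CPM in MF against 213 and 250.1 CPM in HF (log2 fold change 0.68, SE 0.13, adjusted p = 0.0367). The call was lost with DESeq2 (0.68, adjusted p = 0.0705), without MF replicate 1 (0.53, adjusted p = 0.969), at Leiden resolution 3 (0.49, adjusted p = 0.203) and with the dentate gyrus drawn by marker score (0.59, adjusted p = 0.612). None of the 6 proliferation genes tested was called (median 0.30, all estimates positive), with Cdk1 at 4.15 and 3.74 CPM against 7.42 and 9.51 CPM (1.08, SE 0.42, adjusted p = 0.519). The stem and progenitor list split, with 11 positive and 3 negative estimates of 14 and no call. Fabp7, a fatty acid binding protein of radial glia and astrocytes, was at 107 and 92.3 CPM against 83.7 and 60.0 CPM (-0.50, SE 0.16, adjusted p = 0.358). In the whole section, where the median over all genes was 0.0020, no gene of these lists was called. The median was -0.21 for the proliferation list (13 of 14 estimates negative) and 0.18 for the immature neuron list (21 of 26 positive). For the stem and progenitor list it was 0.05 (9 of 15 positive).

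In the ventricle wall 7 members could be tested, 3 with positive and 4 with negative estimates, a median of -0.08 against -4.4e-04 over all genes tested, and 0.00903% of 11076 genes called. Sox4 stood lowest, at 44.5 and 38.8 CPM in MF and 28.5 and 21.9 CPM in HF (log2 fold change -0.77, SE 0.26, unadjusted p = 0.00937, adjusted p = 0.726). Sox11 was at 60.7 and 86.2 CPM against 64.0 and 44.8 CPM (-0.41, SE 0.24, adjusted p = 0.970), and the groups overlapped. Nes was at 11.6 and 10.8 CPM against 13.04 and 20.0 CPM (0.56, SE 0.40, adjusted p = 0.984). Mki67 rested on few UMIs (-0.66, SE 0.63, adjusted p = 0.994), and Draxin, Top2a and Eomes were not tested there. Neurod1 (0.0058, SE 0.24), Igfbpl1 (-0.08, SE 0.44) and Dcx (0.20, SE 0.24) had estimates within 1 SE of 0. The 13 ependymal markers that drew the wall summed to 1554 and 1529 CPM in MF and 2453 and 2101 CPM in HF, and the 13 white matter markers to 27846 and 21921 CPM against 18353 and 18428 CPM, and their part in the values of the members was not tested.

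**Figure D5:**
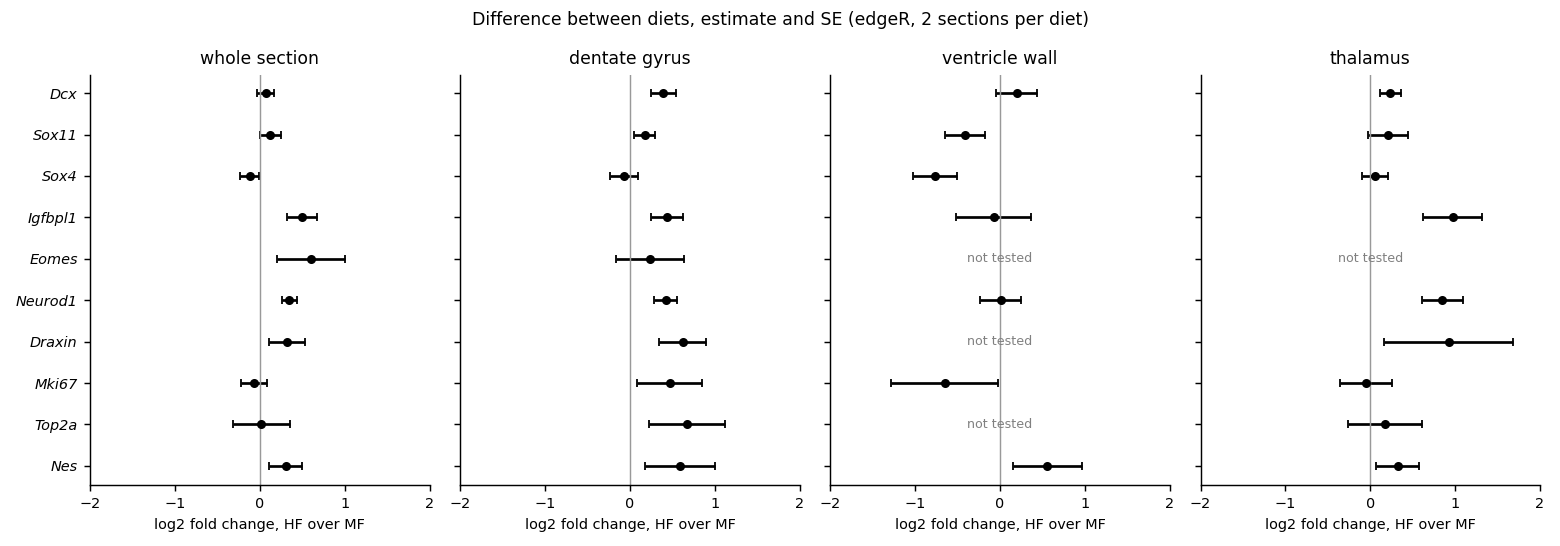
The panels plot the log2 fold change of HF over MF (horizontal axis, bars show 1 SE) for the genes that could be tested, 10 in the whole section, 10 in the dentate gyrus, 7 in the ventricle wall and 9 in the thalamus, with 2 sections per diet. In the dentate gyrus 9 of 10 estimates lie right of 0, with Draxin at 0.62 and Sox4 at -0.07, while in the wall Sox4 lies at -0.77; no estimate shown passed the threshold after adjustment.

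In the other areas no member passed the test, and the smallest adjusted p were those of Sox4 in the striatum, Neurod1 in the thalamus and Neurod1 in cortex layers 2-3. In cortex layers 2-3 Neurod1 was at 45.9 and 66.3 CPM against 67.6 and 66.0 CPM (0.34, SE 0.17, adjusted p = 0.591), and the groups overlapped. In the thalamus Neurod1 was at 13.5 and 12.5 CPM in MF and at 29.97 and 16.6 CPM in HF (0.85, SE 0.24, adjusted p = 0.566). This value passed with the replicate number as a block (0.82, adjusted p = 0.0145) and with no filter on low counts (0.85, adjusted p = 8.94e-04), without HF replicate 1 it was 0.34, and without HF replicate 2 it was 1.18 (adjusted p = 1.34e-06), in a fit that called 1147 of all genes (8.45%). Igfbpl1 was at 2.49 and 2.08 CPM against 5.95 and 2.91 CPM in the thalamus (0.97, SE 0.35, adjusted p = 0.624), and at 2.04 and 1.44 CPM against 2.94 and 5.84 CPM in the hypothalamus (1.27, SE 0.43, adjusted p = 0.693). The section that stood highest was HF replicate 1 in the thalamus and HF replicate 2 in the hypothalamus. The clusters that make up these areas were not shared evenly by the sections. Of the thalamus clusters, 1 held 331 spots of HF replicate 1 against 51, 89 and 45 of MF replicate 1, MF replicate 2 and HF replicate 2, and another held 32 against 279, 191 and 240. Of the hypothalamus clusters, 1 led by Avp and Oxt held 3 and 10 spots in MF and 112 and 100 in HF, and another held 204, 119, 89 and 2 spots. The part of this makeup in the values was not tested. Sox11 passed in the thalamus without HF replicate 2 (0.57, adjusted p = 0.00171), and so did Igfbpl1 (1.33, adjusted p = 0.00420). The latter also passed in the hypothalamus without HF replicate 1 (1.67, adjusted p = 0.00429), where 622 of all genes (4.63%) were called. In the striatum Sox4 was at 26.9 and 20.0 CPM in MF and at 16.6 and 11.0 CPM in HF (-0.97, SE 0.30, adjusted p = 0.406), which passed only without HF replicate 1 (-1.18, adjusted p = 0.0375), where 121 of all genes (1.02%) were called. Sox11, its relative, lay on the opposite side there, at 33.1 and 45.9 CPM against 62.5 and 49.6 CPM (0.53, SE 0.21, adjusted p = 0.630).

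Whether the diet effect of a member differed between areas was tested with the area by diet terms of 1 fit over the areas. None of the 10 members was called, where 0.0216% of 13911 genes were. The smallest unadjusted p was that of Sox4 (0.0407, adjusted p = 0.725), followed by Dcx (0.0649, adjusted p = 0.746) and Neurod1 (0.0662, adjusted p = 0.746).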

How the data were processed

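Visium-FFPE libraries of 4 coronal brain sections, 2 per diet, were counted by the authors with Space Ranger 2.0.0 on mm10, per the labels and methods. The authors deposited raw UMI counts per gene and spot for each section, not pooled, and a spatial enrichment score, Moran's I. The members and gene lists were chosen with earlier results of these data known. No column of per-sample values was left unused. Symbols and positions came from GENCODE vM21 (19451 of 19465 features matched).

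Spots with at least 500 UMIs and 250 genes, the filter of the study, were kept. They were clustered (scanpy 1.11.5, leidenalg 0.10.2, resolution 2; 2000 variable genes, 30 principal components, 20 neighbours) without the members, the list genes, mitochondrial genes, Xist and Tsix, and clusters were named from marker genes, with no histology at hand. Spots are regions that hold several cells, so doublets were not called. The ventricle wall was the 50 spots per section with the highest mean log(1 + CPM) of 13 ependymal markers outside the choroid plexus. The score of the last spot inside and the first outside was 2.74 and 2.62, 2.28 and 2.28, 2.69 and 2.69, and 2.61 and 2.58 in the 4 sections. Choroid plexus had under the minimum of 10 spots in 1 section and was not tested.

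UMIs were summed per section and area. The count test was the quasi-likelihood test of edgeR 4.0.16 (TMM, filterByExpr) on all genes with Benjamini-Hochberg adjustment, with section as a block between areas, and a call needed an adjusted p under 0.05 and a 1.2-fold change. The replicates are called biological by the study, and whether pups shared a litter is not given in the sources used here, so p-values measure the spread between these sections. In data simulated for 200 changed genes, edgeR recovered 84% of 2-fold changes between diets in the whole section, 72.5% in the dentate gyrus and 63% in the wall, and at 1.5-fold 46.5%, 28% and 13.5%, with 22, 14 and 13 false calls at 2-fold. DESeq2 recovered 81%, 45% and 25.5% at 2-fold and 60%, 8% and 3% at 1.5-fold. Named genes were the members and, of each other list, at most 3 called genes by smallest p or, with none called, the 2 with the smallest p. Alternatives were DESeq2 1.42.0, the replicate number as a block, no filter, library size alone, spots thinned to 5000 UMIs, each section left out, Leiden resolutions 1 and 3, a wall of 25 or 100 spots and a dentate gyrus drawn by marker score. The replicate numbers crossed, the wall as ependymal clusters and the remainder of the section pooled were chosen after seeing the data. Space Ranger counts probe pairs, so levels were not compared between genes.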

Additional observations from a re-analysis of the deposited data

How the results depend on the processing

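Limits first. With 2 sections per diet, 1 library decides many values between diets, and MF replicate 1 was the deepest section. Scarce members (Eomes, Top2a, Draxin, Mki67 in the wall) had few UMIs. The replicate numbers of the labels do not pair the sections: deviations of same-numbered sections correlated at -0.16 in the whole section and 0.0023 in the dentate gyrus, with only 2 pairs.

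Between areas, 8 of 9 members tested were called in the dentate gyrus, and 5 of 5 tested with spots thinned to 5000 UMIs, since fewer passed the filter. In the wall 8 of 9 were called, and 2 of 5 tested with thinned spots. With 1 section left out these counts were 7 to 9 and 6 to 8, and the parts of the wall gave 1 to 3 calls of members.

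Between diets, the main counts of members called were 0. Leaving out each section in turn gave 0 to 3 in the whole section, 0 to 3 in the dentate gyrus, 0 in the wall and 0 to 3 over the other areas. Over the other areas the replicate block, the crossed replicate block and no filter on low counts gave 1 each, Neurod1 in the thalamus. Over all genes the whole section had 0 calls, but 22 with DESeq2, 11 with the crossed replicate block, 5 with no filter, 1 with thinned spots and 0 to 1166 with 1 section left out. The dentate gyrus had 14, but 9 with DESeq2, 54 with the replicate block, 85 with the crossed replicate block, 100 with no filter, 8 at Leiden resolution 3, 1 with the marker score and 6 to 439 with 1 section left out. The wall had 1, but 21 with the replicate block, 4 with the crossed replicate block, 38 with no filter, 2 with thinned spots, 0 with 25 spots, 100 spots or ependymal clusters, and 14 to 87 with 1 section left out. The cause was not tested. The count was highest without HF replicate 1 in all 3 (1166, 439 and 87), and for the whole section 840 without HF replicate 2.

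Directions turned as follows (log2). Top2a between diets in the whole section was -0.014 with the replicate block, -0.053 with the crossed replicate block and -0.38 with thinned spots. Sox11 in the dentate gyrus was -0.044 at Leiden resolution 3, and Eomes there was -0.23 with the marker score. In the wall, Dcx was -0.21 with 25 spots, -0.00726 with 100 spots and -0.10 as ependymal clusters, where Igfbpl1 was 0.016 and Neurod1 -0.027, and Elavl2 was -0.035 with thinned spots. Between areas, Nes in the dentate gyrus was -0.11 at Leiden resolution 3 and -0.22 with the marker score, Dcx in the wall was 0.068 with library size alone and 0.015 at Leiden resolution 1, and Neurod1 in the wall was -0.97 as ependymal clusters. The cause was not tested. None of these except the last passed the threshold.

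With 1 section left out, the values between diets that turned ranged, in the whole section, from -0.072 to 0.19 (Dcx), -0.021 to 0.26 (Sox11), -0.013 to 0.98 (Eomes) and -0.54 to 0.45 (Top2a). In the dentate gyrus they ranged from -0.10 to 0.81 (Igfbpl1), -0.52 to 0.68 (Eomes) and -0.30 to 0.91 (Mki67). In the wall they ranged from -0.11 to 0.43 (Dcx), -0.57 to 0.35 (Igfbpl1), -0.24 to 0.48 (Neurod1) and -1.79 to 0.067 (Mki67), and in the thalamus from -0.30 to 0.57 (Sox11). Nes in the dentate gyrus against the other areas ranged from -0.13 to 0.26.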
